A study of Mus musculus with 67 samples.

Results

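The genes described here are the core genes of the mammalian circadian clock, 10 in all: Clock, Arntl, Per1, Per2, Per3, Cry1, Cry2, Nr1d1, Nr1d2 and Dbp. They were chosen by symbol from the deposited expression table, which lists 26414 genes, and all 10 were found there. The rule itself uses symbols only. The study compared mouse embryos that had been lit with embryos kept in the dark, at 5 stages up to the blastocyst, and 67 libraries were sequenced. All embryos were C57BL/6, made by in vitro fertilization of oocytes of 6-week-old females with sperm of 10-week-old males. Embryos of the light group received a single exposure to 5000 lx, lasting 6 h and given as 2-cell embryos, before culture in a dark incubator, and those of the control group had no such exposure. Libraries were made by the SMART-seq2 protocol, which amplifies full-length cDNA of very small samples, from cells picked out of dissociated embryos. Control embryos gave 7 libraries of 2-cell, 6 of 4-cell and 4 of 8-cell embryos, 13 of morulae and 3 of blastocysts. Light embryos gave 6, 8, 8, 6 and 6 in the same order. The labels number the libraries within a group and name no litter, culture or day, so that the p-values measure the spread between these libraries, some of which may share an embryo. The time of day at which embryos were collected is not given in the sources used here, so that the values cannot be placed in a daily cycle.

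The circadian clock is a feedback loop of transcription that runs with a period of about a day. CLOCK and ARNTL (also named BMAL1) form the activating pair, which binds E-box sequences and drives the Per and Cry genes. PER and CRY proteins in turn repress that pair. A further loop is formed by NR1D1 and NR1D2 (REV-ERB alpha and beta), heme-binding nuclear receptors that repress Arntl through RRE sequences, and DBP is a PAR bZIP activator that binds D-box sequences and carries the rhythm to output genes. In the adult the loop is set by light through the retina and the suprachiasmatic nucleus, where Per1 is induced through CRE sequences. In the early mouse embryo RNA stored in the oocyte is lost while the embryo's own genome becomes active, mainly in the 2-cell stage.

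Promoter windows of Per3, Arntl and Per1 are shown. Per3 and Arntl are the members whose light and control libraries did not overlap at the 2-cell stage. Per1 is the member with both an E-box and a D-box in 1 window, the one shown. Each is the 250 bases before a transcription start site of RefSeq on GRCm38.p6, written 5′ to 3′ on the strand of the gene. Capitals mark matches, on either strand, to the E-box CACGTG, the D-box TTATGNAA, the RRE core TNGGTCA and the CRE TGACGTCA.
Per3, chr4:151044666-151044915, minus strand: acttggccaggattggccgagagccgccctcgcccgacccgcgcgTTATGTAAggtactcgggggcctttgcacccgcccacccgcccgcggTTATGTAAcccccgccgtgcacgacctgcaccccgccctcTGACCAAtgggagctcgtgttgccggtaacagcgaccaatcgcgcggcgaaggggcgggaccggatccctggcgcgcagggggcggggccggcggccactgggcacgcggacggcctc
Arntl, chr7:113207215-113207464, plus strand: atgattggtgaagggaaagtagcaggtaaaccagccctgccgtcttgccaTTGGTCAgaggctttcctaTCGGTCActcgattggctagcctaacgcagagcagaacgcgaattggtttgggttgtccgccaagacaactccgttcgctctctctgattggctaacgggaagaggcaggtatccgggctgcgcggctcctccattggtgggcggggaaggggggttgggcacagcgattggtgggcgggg
Per1, chr11:69098699-69098948, plus strand: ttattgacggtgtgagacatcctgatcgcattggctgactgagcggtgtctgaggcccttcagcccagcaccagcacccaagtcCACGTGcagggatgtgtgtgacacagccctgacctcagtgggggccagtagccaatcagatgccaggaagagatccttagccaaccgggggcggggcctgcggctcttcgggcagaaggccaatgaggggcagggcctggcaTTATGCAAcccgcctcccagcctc
The Per3 window held 2 D-box matches, beginning 205 and 158 bases before the start, and an RRE core match 118 bases before it. In Arntl there were 2 RRE core matches, 200 and 181 bases before the start. Of 32851 windows of the same length in the table, 6.02% held an E-box, 3.07% a D-box, 9.19% an RRE core and 1.55% a CRE. Of the 9 members with a window, 2 held an E-box (Per1 and Cry1), 2 a D-box (Per1 and Per3) and 3 an RRE core (Arntl, Per3 and Cry2). Counted as windows, like the shares above, these were 2, 2 and 4 of 13. The 2 windows of Arntl overlap and share their matches, and the other window of Per1 held no match. The CRE letters were in 0 of the 13 member windows. The table used here lists no window of Per2. These are matches of letters only. The RRE core pattern takes any base after its first T, and its matches in Arntl, Per3 and Cry2 read TTGGTCA or TCGGTCA. They are therefore not shown to be RRE sequences that NR1D1 or NR1D2 bind.

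On GRCm38 (GENCODE M21) the members lie on separate loci. Clock is on chromosome 5 (76209868 to 76304792, minus strand), Arntl on chromosome 7 (113207465 to 113314126, plus), Per1 on chromosome 11 (69095217 to 69109960, plus), Per2 on chromosome 1 (91415982 to 91459324, minus) and Per3 on chromosome 4 (151003652 to 151044665, minus). Cry1 is on chromosome 10 (85131700 to 85185064, minus), Cry2 on chromosome 2 (92403646 to 92434043, minus), Nr1d1 on chromosome 11 (98767932 to 98775333, minus), Nr1d2 on chromosome 14 (18204054 to 18239127, minus) and Dbp on chromosome 7 (45705088 to 45710203, plus). Exons of 4 members overlap a gene on the opposite strand: 18% of the exonic bases of Dbp (with Sphk2), 8.55% of Nr1d1 (with Thra), 4.67% of Cry2 (with D930015M05Rik) and 0.439% of Arntl (with Gm45355). The counting is not stated to have used strand, so reads on these stretches cannot be assigned to 1 gene.

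A deposited value is the number of reads on a gene divided by its library's size factor, with no division by length. Total reads per library lay between 836011 and 8551674, and 54.0% to 89.3% of them were on CT010467.1 and Gm42418, so that 318177 to 2867034 reads per library covered all other genes. The mean value of Gm42418 relative to CT010467.1 was 3.00 ± 0.668 (SD, n = 7) in control and 1.65 ± 0.0697 (SD, n = 6) in light 2-cell libraries, and the groups did not overlap in this ratio at the 2-cell, 8-cell and morula stages. Control 4-cell library 3 had a median correlation of 0.849 with its own group and 0.888 with the light libraries. It had the largest gap of the 4 of 6 control 4-cell libraries that correlated better with the light group. Such libraries were not confined to that stage. Control 2-cell library 17 had 0.8397 with its own group and 0.8416 with the light group. In control morulae the medians of these 2 correlations were 0.7879 and 0.7998. Y-linked genes reached 10 CPM outside the pair named above in 0 of 3 control and 6 of 6 light blastocyst libraries. The same was so of 4 of 6 and 8 of 8 4-cell libraries, and of 3 of 7 and 2 of 6 2-cell libraries. At the 8-cell stage it was so of 0 of 4 control and 3 of 8 light libraries, and in morulae of 0 of 13 and 1 of 6. Markers of the 2-cell and blastocyst stages were present. The 8 transient 2-cell genes, such as Zscan4d, summed to 324 to 1001 in control 2-cell and 1.28 to 6.31 in control blastocyst libraries. Trophectoderm markers summed to 78.1 to 212 and 521 to 6365 in the same groups. Against the order of stages, the 2-cell genes were higher in control 8-cell (75.9 to 363, median 229) than in control 4-cell libraries (14.7 to 95.4, median 27.3). In light libraries these medians were 43.5 and 69.4. Sperm markers did not exceed a sum of 10.4 in any library. Whether these differences between libraries take part in the results below was not tested.

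All 10 clock genes had reads at the 2-cell stage, and their summed value was lower at the 4-cell stage in both groups. The mean of Cry2 instead rose, from 4.62 to 15.3 in control and from 21.6 to 27.3 in light libraries. That of Nr1d2 rose from 80.0 to 112 in light libraries. Summed over the members, values lay between 1394 and 2279 in control 2-cell libraries and between 65.6 and 203 in control 4-cell libraries, without overlap. In light libraries the sums were 899 to 1530 and 169 to 598. The median of later groups was 166 and 161 in 8-cell embryos, 87.1 and 129 in morulae, and 145 and 53.9 in blastocysts, for control and light. Per kilobase of exon, Cry1 was the highest member in control 2-cell libraries with a mean of 77.8, followed by Clock (41.9), Arntl (36.4), Per3 (25.5), Nr1d1 (23.1), Dbp (20.5), Per1 (19.9) and Nr1d2 (8.50). Per2 (1.34) and Cry2 (0.731) were the lowest. The plot of levels by stage shows each library.

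**Figure D1:**
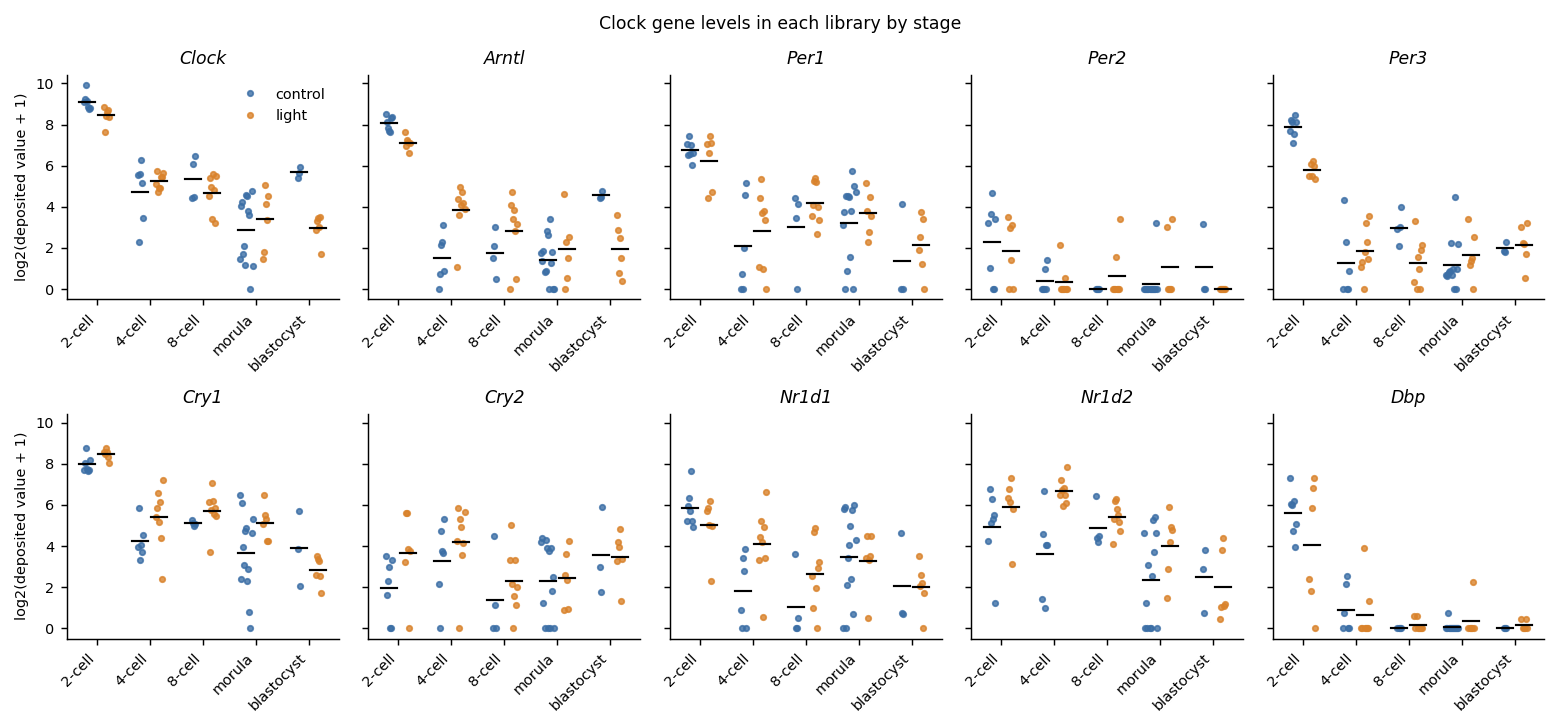
Level of each clock gene in each of the 67 libraries by stage, on a log2 scale of the deposited value plus 1. Points are libraries (blue control, orange light) and bars are group means on that scale. By these means Clock, Arntl, Per1, Per2, Per3, Cry1, Nr1d1 and Dbp are highest at the 2-cell stage in both groups. At that stage Per3 of the 6 light libraries (39.7 to 75.1) sits below that of the 7 control libraries (135 to 346).

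Light was compared with control at each stage to learn which genes respond to the exposure. A gene was called when its adjusted p (limma on log2 of the value plus 1, Benjamini-Hochberg over all genes tested) was under 0.05 and its fold change was at least 2. At the 2-cell stage 1 of 10 members was called, Per3, which was lower in light, against 10.5% of the 18532 genes tested. At the 4-cell stage 1 of 9 was called, Nr1d2, which was higher in light, against 1.45% of 15010 genes. At the 8-cell stage limma called 0 of 8 members, against 9.21% of 13861 genes, and 1 member had an unadjusted p under 0.05. In morulae it called 0 of 9, against 1.18% of 15217 genes, and 0 had an unadjusted p under 0.05. edgeR and DESeq2 on the recovered reads also called 0 members at both stages. In blastocysts 1 of 8 was called, Clock, which was lower in light, against 5.34% of 12743 genes. The values of Per2 were too low to be tested at the 4-cell, 8-cell and blastocyst stages, as were those of Dbp from the 8-cell stage on. The median log2 difference of the members tested was -0.61 in 2-cell, 0.94 in 4-cell and 0.76 in 8-cell embryos, 0.50 in morulae and -0.28 in blastocysts, beside 0.00, 0.13, 0.16, 0.10 and -0.64 over all genes tested.

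**Figure D2:**
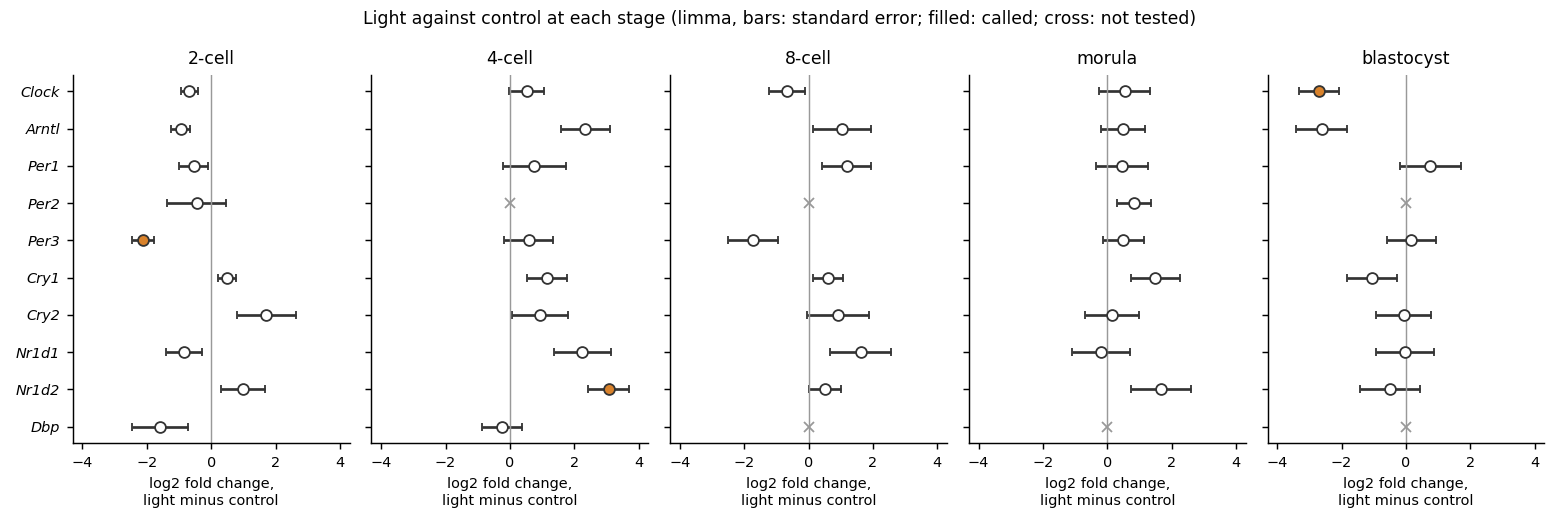
Log2 difference between light and control for each clock gene at the 5 stages, from limma fits of log2 of the value plus 1. Points are estimates, bars are standard errors, filled points passed both thresholds and crosses were not tested. Only Per3 at the 2-cell stage (-2.11), Nr1d2 at the 4-cell stage (3.07) and Clock in blastocysts (-2.70) are filled.

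Of the activating pair, Clock encodes a bHLH-PAS protein that binds DNA together with ARNTL. At the 2-cell stage its values ran from 430 to 979 with a median of 550 in control libraries and from 198 to 458 with a median of 368 in light libraries. The groups overlapped, and the log2 difference of -0.68 (SE 0.27) did not pass (limma, adjusted p = 0.0975). Control 4-cell libraries ran from 3.93 to 76.3 (median 40.0) and light ones from 25.4 to 52.9 (median 37.9), a range lying inside that of the control libraries. In 8-cell libraries the control values were 20.4, 20.9, 66.0 and 87.6, and the light values ran from 8.13 to 48.1. Morulae gave 0 to 26.1 in control and 1.75 to 32.7 in light libraries.

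In blastocysts Clock was lower in the light group. The control libraries had 41.6, 49.8 and 60.4, and the light libraries ran from 2.24 to 10.3 with a median of 8.07. Every light library lay below every control library. Groups without overlap, in either direction, were seen for 12.5% of the genes tested at this stage. The log2 difference was -2.70 (SE 0.62, 6.48 times lower, limma, adjusted p = 0.0165). The median of all genes tested was itself lower by 0.64 on this scale, and with scalings that bring that median to between -0.10 and 0.02 the difference of Clock was -2.08 (median ratio, adjusted p = 0.0553), -2.05 (CPM outside the most abundant pair, adjusted p = 0.0783) and -1.99 (quantile, adjusted p = 0.0644). On the recovered reads it was lost in edgeR (-2.07, adjusted p = 0.0652) and held in DESeq2 (-2.09, adjusted p = 0.00409). The call was also lost without control library 2 (adjusted p = 0.0858) or control library 3 (adjusted p = 0.0562). The sums of 8 inner cell mass markers were 301, 1832 and 2195 in the control and 144 to 207 in the light libraries, with 7 of 8 called lower and none of the 8 at 0 in all libraries of a group, and trophectoderm markers summed to 521 to 6365 and 2722 to 6910. The inner cell mass markers and the Y-linked genes given above moved with the groups at this stage, and their part in the difference of Clock was not tested.

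Arntl encodes the other partner of the activating pair. Its 2-cell values ran from 196 to 361 (median 282) in control and from 97.1 to 195 (median 140) in light libraries. The groups did not overlap, although the highest light library (195.5) and the lowest control library (195.8) almost touched. The log2 difference of -0.95 (SE 0.30, adjusted p = 0.0342) passed the test of limma but at 1.93 times lower fell short of the fold threshold. It passed both thresholds with quantile normalization (-1.02), edgeR (-1.07) and DESeq2 (-1.02), while its adjusted p was 0.353 in 1 fit over all libraries and between 0.0301 and 0.0791 when each library was left out. Groups without overlap were seen for 4.15% of the genes tested at this stage, and Arntl and Per3 were the 2 members among them.

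At the 4-cell stage Arntl was close to the limit of detection in control libraries. These had 0 to 7.51 (median 2.12), and the light libraries 1.12 to 30.4 (median 16.6). Of the 8 light libraries, 7 lay above every control library, and light library 11, at 1.12 or 1 read, lay among the control values. The log2 difference of 2.34 (SE 0.76) did not pass (limma, adjusted p = 0.113), though DESeq2 (2.73, adjusted p = 0.0101) and 1 limma fit over all libraries (adjusted p = 0.0231) called it. In the 8-cell stage the control values were 0.417, 1.85, 3.19 and 6.97 and the light values 0 to 24.9, and morulae gave 0 to 9.49 and 0 to 23.6. In blastocysts the control libraries had 20.5, 21.2 and 26.3 and the light libraries 0.320 to 11.3 (median 3.17), again without overlap, as for Clock. The log2 difference there was -2.62 (SE 0.79) and did not pass (limma, adjusted p = 0.0549).

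Among the repressors, Per3 gave the clearest difference at the 2-cell stage. PER3 is the period protein least needed for the core rhythm of the mouse. The 7 control libraries had 135, 188, 207, 274, 275, 293 and 346 (median 274), and the 6 light libraries 39.7, 43.4, 43.6, 62.2, 67.3 and 75.1 (median 52.9). All light libraries lay below all control libraries, and these values rest on 155 to 873 reads in control and 16 to 163 in light libraries. The log2 difference was -2.11 (SE 0.34, 4.33 times lower, limma, adjusted p = 0.000171). It stayed between -2.25 and -2.02 when each library was left out in turn and was called in all 13 such fits. The 9 oocyte maternal markers, such as Bmp15 and Oosp1, moved with the groups at this stage: their sums were 2479 to 5452 in control and 749 to 2227 in light libraries, without overlap, 3 of 9 were called lower, and their median log2 difference was -1.10. Cumulus cell markers summed to 0 to 5.52 in control and 1.24 to 58.9 in light libraries, with 5 of 8 listed in the table, of which Inhba was at 0 in all control and Fshr in all light libraries. Their part in the difference of Per3 was not tested.

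After the 2-cell stage Per3 was low in both groups. It ran from 0 to 19.0 in control and 0 to 10.6 in light 4-cell libraries, with 3 of 6 and 1 of 8 at 0. In 8-cell libraries the control values were 3.19, 6.48, 6.97 and 15.0 and the light values 0 to 8.97, a log2 difference of -1.72 (SE 0.77, limma, adjusted p = 0.164). Morulae reached 21.2 and 9.60, and blastocysts 3.85 and 8.33, as the highest values in control and light. No difference between the groups was detectable at these levels of few reads.

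Per1, a period gene that light induces in the adult clock, did not pass at any stage. Control 2-cell libraries ran from 65.4 to 175 (median 98.6) and light ones from 20.6 to 175 (median 113). Light libraries 9 and 12, at 25.0 and 20.6, were below every control library, while the other 4 light libraries lay between 95.5 and 175. The log2 difference was -0.54 (SE 0.46, limma, adjusted p = 0.490). Later stages ranged from 0 to 51.7 in control and 0 to 41.8 in light libraries, with differences between 0.45 and 1.19 on the log2 scale and adjusted p of 0.348 or more. Per2 was the least detected period gene. It had reads in 5 of 7 control and 4 of 6 light 2-cell libraries, up to 24.3 and 10.5, in 2 of 6 and 2 of 8 libraries at the 4-cell stage, and in 1 of 13 and 2 of 6 morulae. All 4 control 8-cell libraries and all 6 light blastocyst libraries had no read of Per2.

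Cry1 and Cry2 encode the cryptochromes, which repress CLOCK and ARNTL and, unlike those of plants and flies, do not need light. Cry1 had 203 to 434 (median 216) in control and 265 to 429 (median 366) in light 2-cell libraries. Control library 12 (434) lay above the light libraries, library 9 (287) within their range and the other 5 below it, and the log2 difference of 0.49 (SE 0.27) did not pass (limma, adjusted p = 0.263). The 4-cell values ran from 9.12 to 57.7 (median 15.1) and 4.24 to 149 (median 48.7), and the 8-cell values were 30.2, 32.5, 33.5 and 37.9 in control and 12.0 to 135 in light libraries. Differences in these stages (1.15 and 0.61) and in morulae (1.49) were above 0, and that in blastocysts (-1.06) was below 0, all with adjusted p of 0.338 or more. Cry2 showed another course from the rest. It had 0 to 10.4 (median 3.91) in control and 0 to 48.6 (median 12.9) in light 2-cell libraries, and 0 to 38.6 (median 12.2) and 0 to 56.6 (median 23.7) at the 4-cell stage. The log2 differences were 1.71 (SE 0.92, adjusted p = 0.243) and 0.94 (SE 0.87, adjusted p = 0.605) by limma, and neither passed.

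In the REV-ERB loop Nr1d2 gave the largest difference of the 4-cell stage among the members. The 6 control libraries had 0.978, 1.70, 15.6, 15.7, 22.9 and 100 (median 15.7), and the 8 light libraries 60.3, 68.5, 87.6, 89.4, 105, 111, 149 and 227 (median 97.0). Control library 3 lay among the light values, and the other 5 control libraries lay below all of them. The log2 difference was 3.07 (SE 0.64, 8.41-fold, limma, adjusted p = 0.0176), and without control library 3 it was 3.68 (adjusted p = 0.00127). It was called in all 14 fits that left out a library. The estimate was smaller on the recovered reads and did not pass there, with 1.82 by edgeR (adjusted p = 0.121) and 1.88 by DESeq2 (adjusted p = 0.0622), and the call was lost without the filter on low values (adjusted p = 0.0655).

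At the other stages Nr1d2 overlapped between the groups. Control 2-cell libraries ran from 1.38 to 109 (median 38.6) and light ones from 7.77 to 158 (median 74.8), and the 8-cell values were 17.4, 20.2, 21.7 and 85.2 in control and 16.2 to 77.0 in light libraries. Morulae had 0 to 41.4 (median 4.84), with 5 of 13 control libraries at 0, and 1.75 to 57.9 (median 22.0) in light libraries, while blastocysts had 0.696, 6.31 and 12.8 in control and 0.388 to 19.8 in light libraries. The log2 differences were 0.99, 0.51, 1.67 and -0.48 at these stages, with adjusted p of 0.383 or more. With stage as a covariate over all 67 libraries 1 of 10 members was called, again Nr1d2, against 3.2% of 22588 genes, with a log2 difference of 1.36 (SE 0.41, 2.57-fold, limma, adjusted p = 0.0269). That call was lost in edgeR (0.92, adjusted p = 0.137) and DESeq2 (0.82, adjusted p = 0.168).

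Nr1d1 was present at the 2-cell stage at 29.0 to 203 (median 51.3) in control and 3.89 to 71.7 (median 41.8) in light libraries. In 4-cell libraries it had 0 to 13.7 (median 3.36) in control and 0.482 to 98.9 (median 18.9) in light libraries. Of the 8 light libraries 5 lay above the highest control library and light library 5 had 1 read. The log2 difference of 2.26 (SE 0.88) did not pass (limma, adjusted p = 0.179). In 8-cell libraries the control values were 0, 0, 0.417 and 11.1 and the light values 0 to 28.5, and in morulae the control values spread from 0 to 62.5 (SD 24.7 around a mean of 24.0, n = 13) and the light values from 0.394 to 21.8. Blastocysts had 0.642, 0.696 and 24.2 in control and 0 to 10.5 in light libraries.

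Dbp, the output factor, was a 2-cell transcript in these data. Control libraries of that stage had 14.3 to 156 (median 63.9). Light libraries 9, 12 and 10 had 0, 2.48 and 4.20, below every control library, and the other 3 had 57.0, 112 and 159. The 8 transient 2-cell genes summed to 179, 137 and 364 in light libraries 9, 12 and 10. Those libraries had 4797721, 6978460 and 4704377 total reads. In light libraries 14, 15 and 16 the sums were 1064, 1935 and 925, with 1991822, 2036636 and 836011 reads. Libraries 9 and 12 were also those low in Per1, and the part of these differences was not tested. The log2 difference of -1.58 (SE 0.86) did not pass (limma, adjusted p = 0.248), the spread among light libraries being larger than that difference. Of the 4-cell libraries 3 of 6 control and 6 of 8 light were at 0, with highest values of 4.89 and 14.1. From the 8-cell stage on Dbp had reads in 1 control and 5 light libraries, at no more than 3.73.

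The 2-cell and 4-cell stages were then compared within each group, since stored RNA is lost between them. In control embryos 8 of 10 members were called and all 8 were lower at the 4-cell stage, against 46.1% of 17725 genes called and 32.3% called lower. In light embryos 7 of 10 were called lower, against 36.5% of 17258 genes called and 29% called lower. The members' median change was -4.22 in control and -3.13 in light embryos on the log2 scale, beside -0.72 and -0.56 over all genes tested. In control embryos the largest falls were those of Per3 and Arntl. Per3 fell by 6.64 (SE 0.66, adjusted p = 6.74e-08) and Arntl fell by 6.55 (SE 0.54, adjusted p = 6.02e-09) in limma. Dbp fell by 4.71, Per1 fell by 4.69, Clock fell by 4.40, Nr1d1 fell by 4.03 and Cry1 fell by 3.73. Per2 fell by 1.89 (adjusted p = 0.0467), a call that was lost with another pseudocount, without the filter on low values, in 2 of 3 other scalings and in 9 of 13 fits that left out a library. Cry2 (1.30, adjusted p = 0.224) and Nr1d2 (-1.30, adjusted p = 0.246) did not pass.

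In light embryos Per3 fell by 3.94, Per1 by 3.39, Dbp by 3.37, Arntl by 3.26, Clock by 3.20, Cry1 by 3.06 and Per2 by 1.51, the last with an adjusted p of 0.0465 that was lost in 7 of 8 other settings without a block and in 10 of 14 fits that left out a library. Nr1d1 (-0.92, adjusted p = 0.310), Nr1d2 (0.78, adjusted p = 0.184) and Cry2 (0.53, adjusted p = 0.637) did not pass in limma. Nr1d2 passed, as higher at the 4-cell stage, under each other scaling (1.11 to 1.36, adjusted p from 0.0238 to 0.0484), and not in edgeR (0.87, adjusted p = 0.0838) or DESeq2 (0.83, adjusted p = 0.0925). The change between the stages was compared between the groups by an interaction term, which uses the same libraries as the comparisons above. Of the 10 members 1 was called, Arntl, against 3.07% of 20395 genes. Its fall was smaller in light embryos by 3.29 on the log2 scale (SE 0.74, limma, adjusted p = 0.0131), being made of a lower 2-cell and a higher 4-cell level in light libraries. The call was kept by edgeR (3.79, adjusted p = 0.00184), DESeq2 (4.06, adjusted p = 2.44e-06) and all 27 fits that left out a library. In the same interaction term 7 of 9 oocyte maternal markers were above 0 (median 1.42, 1 called) and 6 of 8 markers of the 2-cell embryo (median 1.26), beside a median of 0.09 over all genes, and their part in the difference of Arntl was not tested. Nr1d1 (3.11, adjusted p = 0.0989), Per3 (2.71, adjusted p = 0.0759) and Nr1d2 (2.08, adjusted p = 0.276) had differences above 0 that did not pass.

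**Figure D3:**
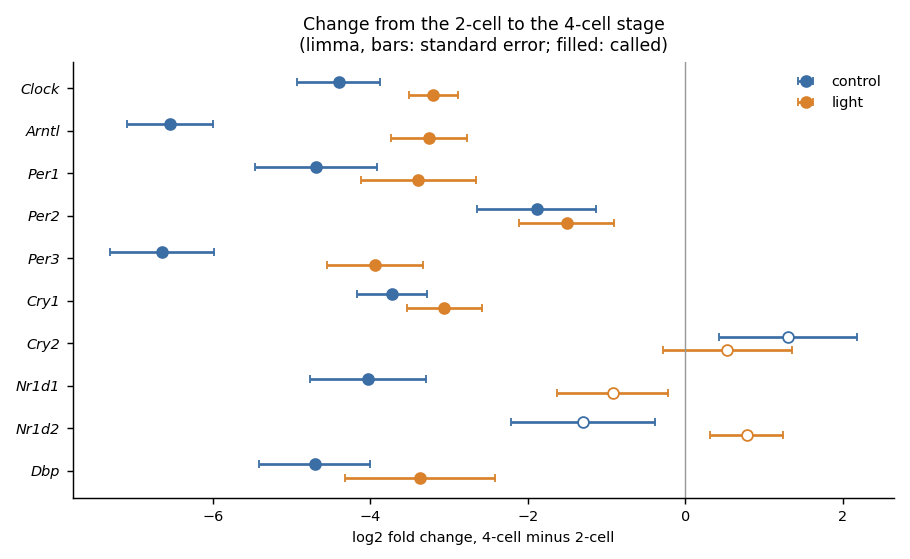
Log2 change of each clock gene from the 2-cell to the 4-cell stage in control (blue) and light (orange) embryos, from limma. Points are estimates, bars are standard errors and filled points passed both thresholds. Arntl fell by 6.55 in control and fell by 3.26 in light embryos, and Cry2 and Nr1d2 are unfilled in both.

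Later steps held few calls. From the 4-cell to the 8-cell stage limma called 0 of 8 members in control embryos, against 6.31% of genes, with 0 at an unadjusted p under 0.05, and 1 of 9 in light embryos, against 10.6%. The member called was Nr1d2, which fell by 1.31 (SE 0.33, adjusted p = 0.00748), from a median of 97.0 to 41.5. The median of all genes tested changed by -0.45 in that step, and the call was lost with each other scaling (-0.76 to -0.70), in 1 fit over all libraries, and in edgeR (-0.73, adjusted p = 0.184) and DESeq2 (-0.71, adjusted p = 0.141). From the 8-cell stage to the morula limma called 0 of 8 in control embryos, against 14.3%, with 4 at an unadjusted p under 0.05, and 0 of 9 in light embryos, against 11.8%, with 2. Clock had the lowest adjusted p of the control members in that step (-2.50, SE 0.88, adjusted p = 0.0548) and was called with a mean value above 5, under each other scaling (-2.80 to -2.57), in DESeq2 (-2.49, adjusted p = 0.0199) and in 1 fit over all libraries, which also called Per3, Nr1d1 and Nr1d2, while edgeR called 0 members. From the morula to the blastocyst 1 of 8 was called in each group, against 11.9% of genes in control and 20.7% in light embryos. In control embryos this was Arntl, which rose by 3.13 (SE 0.85, adjusted p = 0.0157), from a median of 1.57 to 21.2. That call was lost without any of the 3 control blastocyst libraries (adjusted p up to 0.0966), with a pseudocount of 0.1 (adjusted p = 0.0779) and in edgeR (adjusted p = 0.0876). Clock gave 2.82 in the same step (SE 0.98, adjusted p = 0.0623) and was called under each other scaling (2.79 to 3.17), in 1 fit over all libraries and in DESeq2 (2.66, adjusted p = 0.0398), but not in edgeR (2.46, adjusted p = 0.0993). In light embryos it was Cry1, which fell by 2.31 (SE 0.54, adjusted p = 0.00223), from a median of 35.5 to 6.80, a call that held in 9 of 9 other settings and in all 12 fits that left out a library. The interaction term for these 3 later steps called 0 members, against 3.8%, 2.62% and 1.57% of genes, with 2, 1 and 3 members at an unadjusted p under 0.05.

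**Figure D4:**
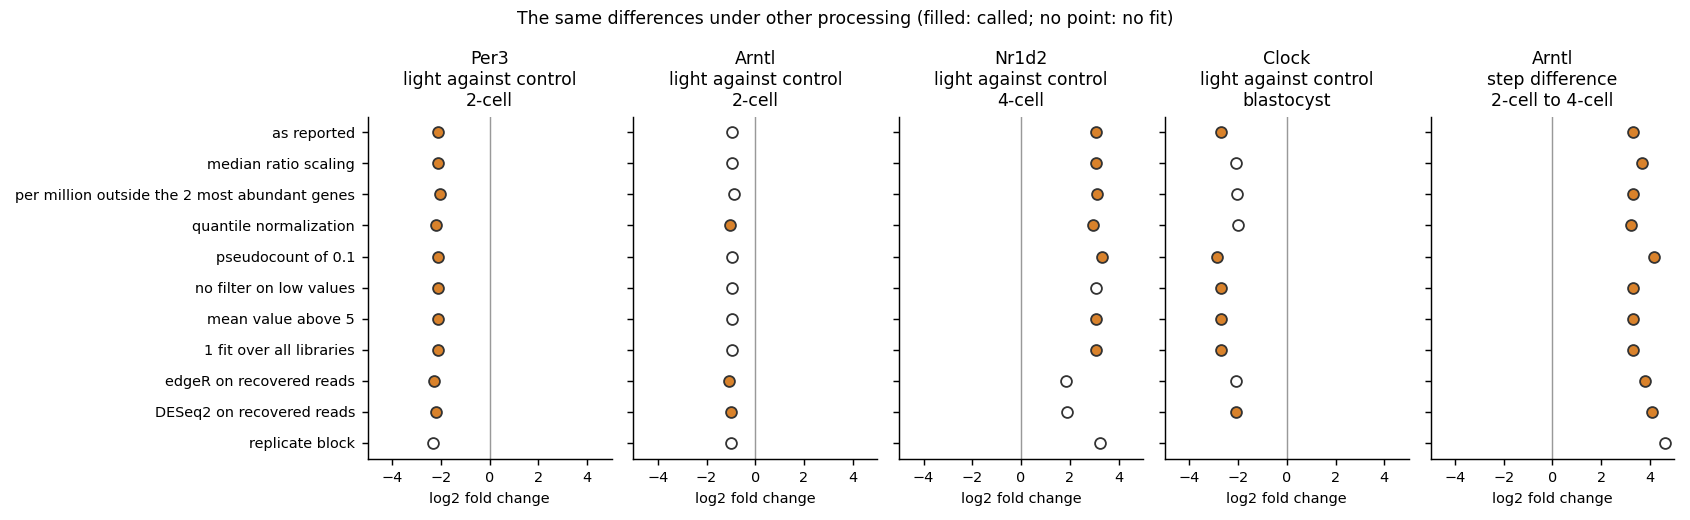
Log2 differences of 5 results under the processing reported and 10 alternatives, on a shared axis. Filled points passed both thresholds, and no point is drawn where the fit could not be made. Per3 at the 2-cell stage stays between -2.33 and -2.05 and Arntl in the step difference between 3.22 and 4.61, while Nr1d2 at the 4-cell stage falls to 1.82 in edgeR.

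Other genes of the clock pathway were counted in 4 lists at the 2-cell stage, where 5.53% of genes were called higher and 4.96% lower. Of 12 other clock transcription factors tested, 1 was higher and 2 lower in light. Tipin, a partner of TIMELESS at replication forks, was higher by 1.03 (adjusted p = 0.0388), and the repressors Bhlhe40 and Bhlhe41 (DEC1 and DEC2), which compete for E-boxes, fell by 3.72 (adjusted p = 0.00212) and by 1.44 (adjusted p = 0.0303) in limma. Of 28 modifiers and cofactors of clock proteins, 2 were higher and 2 lower. The ubiquitin ligase subunit Btrc was higher by 1.77 (adjusted p = 0.0291) and Nono, a partner of PER, by 1.31 (adjusted p = 0.0102), while the kinase Gsk3a fell by 2.42 (adjusted p = 0.000171) and the acetyltransferase Crebbp by 1.24 (adjusted p = 0.000316). Of 14 genes of light and cAMP input the CREB coactivator Crtc3 was called, and fell by 2.12 (adjusted p = 0.0332), and of 10 output genes the kinase Pim3 was called, higher by 1.05 (adjusted p = 0.0399). The median log2 difference of the 4 lists was -0.86, -0.05, 0.00 and 0.98 in that order, beside 0.00 over all genes.

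At the 4-cell stage limma called 0 of the 55 genes tested in these lists, against 1.45% of 15010 genes. An unadjusted p under 0.05 was reached by 14 of the 55. Counted likewise, 8-cell embryos had 14 among 54 list genes tested, and morulae 13 among 57. The share of all genes with such a p was not computed, so these counts cannot show an excess in the lists. At the 8-cell stage, where 5.91% of genes were called higher and 3.3% lower, 3 of 26 cofactors, led by Crebbp (-1.39) and Ep300 (-1.29), and the kinase subunit Prkaca (-2.54) of the input genes were lower, and Nampt (1.97), an enzyme of NAD synthesis, was higher. In morulae Crebbp was lower by 1.43 (adjusted p = 0.0210), with 0.821% of genes called lower. In blastocysts, where 4.98% of genes were called lower, 8 genes of the lists were called and all were lower. Arntl2, the paralog of Arntl, fell by 3.40 (adjusted p = 0.0119), the deubiquitinase Usp9x by 2.60, the ubiquitin ligase Huwe1 by 1.47, Sik2 by 3.17 and the PACAP receptor Adcyap1r1 by 2.48, and the cell cycle kinase Wee1 by 1.97, all relative to a median of all genes that was lower by 0.64. With stage as a covariate Crebbp was lower by 1.15 (SE 0.13, adjusted p = 2.45e-09) and Gsk3a by 1.36 (adjusted p = 0.00110), and Nampt (1.72, adjusted p = 0.000477) and Pim3 (1.07, adjusted p = 0.0171) were higher.

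In the step to the 4-cell stage 8 of 12 other clock transcription factors tested were called lower in control embryos, against 32.3% of genes, with a median change of -4.05. In light embryos 7 of 11 were lower, against 29%, with a median of -2.15. Of the oocyte maternal markers 7 of 9 in control and 9 of 9 in light embryos were called lower, with medians of -4.04 and -2.54. In control embryos Arntl2 fell by 5.83 and Nfil3, a repressor that binds D-boxes, by 5.49. In light embryos Tef, a PAR bZIP factor like DBP, fell by 3.20 and Cipc, an inhibitor of CLOCK, by 3.78. Modifiers and cofactors had 8 of 27 lower and 3 higher in control and 10 of 27 lower and 2 higher in light embryos, with medians of -0.51 and -0.54, close to those of all genes. In the interaction term Bhlhe40 (3.39, adjusted p = 0.0406) and Nono (-2.19, adjusted p = 0.00740) were called, against 3.07% of genes.

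The genes whose levels most resembled each member over the 67 libraries were found by Pearson's correlation of log2 of the value plus 1, among 11217 genes with a mean of at least 10 in some group. Clock was most like Spin1 (r = 0.883) and Zfp280b (0.876), Arntl like Camk1d (0.870) and Pnrc1 (0.867), and Per3 like Vrtn (0.893) and Mansc1 (0.892). Dbp was most like Zscan4e (0.899), of a family expressed in a burst at the 2-cell stage, and the pseudogene Vmn2r-ps61 (0.899). Cry1 reached 0.789 with Dbf4, Nr1d2 0.740 with Abhd6, Per1 0.687 with Lsp1, Nr1d1 0.6249 with Mex3c and Cry2 0.545 with Aspscr1. Among the members, Clock and Arntl had r = 0.787, Arntl and Per3 0.760 and Per3 and Dbp 0.737, while Cry2 had between -0.228 and 0.200 with all others. The points share the 5 stages and low genes share zeros, and no correlation within a stage was computed.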

How the data were processed

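The authors made SMART-seq2 libraries, 33 control and 34 light. The submitters' processing notes name HISAT2, HTSeq 0.9.1 and mm9. The study's methods name RPKM, but no division by length was found: the deposited signal values were reads divided by a library size factor, and 99.95% to 100% of them came out as whole reads within 0.01. Gene loci are from GENCODE M21 and promoters from RefSeq, both of GRCm38, matched by symbol, since the table holds no coordinates.

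Each comparison was fitted with limma 3.58.1 in R 4.3.3 (trend on, log2 of value plus 1, genes above 1 in at least 3 libraries) with Benjamini-Hochberg adjustment over all genes tested. Fold changes are on that scale, which understates changes of low genes. A call needed an adjusted p under 0.05 and a fold of at least 2. Alternatives were other pseudocounts, filters and scalings, 1 fit over all libraries, leaving out each library, a replicate block, and edgeR 4.0.16 and DESeq2 1.42.0 on the recovered reads. Scripts were tested on simulated data. Same-numbered libraries did not deviate together (r from -0.0873 to 0.0702), and the main fits did not pair them. Few such pairs exist in each comparison, so this check cannot show whether they shared a litter, culture or day.

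All members are named. Of the other lists, at most 2 genes per direction, list and comparison are named by smallest p, and of genes most alike, those with the highest correlation. The members and lists were chosen with earlier results of these data known.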

Additional observations from a re-analysis of the deposited data

Results flagged for a closer look

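Among 43 groups of members with a mean of at least 10, 7 held a library far from the others of its group. For normally distributed values about 1 in 20 would do so, which low values with zeros need not follow. Control morulae (13 libraries) and control blastocysts (3 libraries) were outside the group sizes tested. Clock in control 2-cell library 12 was 979, with 602 as the nearest value. Arntl in light 4-cell library 11 was 1.12, below a nearest value of 11.3, and Cry2 in light 4-cell library 14 was 0, below 10.7. In light 2-cell library 16, the shallowest of all with 836011 reads, Nr1d1 was 3.89 (nearest 30.6) and Nr1d2 was 7.77 (nearest 55.0). Nr1d1 in light morula library 3 was 0.394 (nearest 9.12). Nr1d2 in control 8-cell library 1 was 85.2 (nearest 21.7).

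The change of Arntl from the 2-cell to the 4-cell stage differed between light and control embryos by 3.29 on the log2 scale (limma, interaction term, adjusted p = 0.0131), with adjusted p between 0.00307 and 0.0287 when each library was left out.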

How the results depend on the processing

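No alternative turned the direction of a called member. At the 2-cell stage the count of members called (1) became 2 with quantile normalization, edgeR and DESeq2, where Arntl joined Per3, 0 with the replicate block, and 1 to 2 with each library left out. At the 4-cell stage (1) it became 0 without the filter on low values, in edgeR and with the block, 2 in 1 fit over all libraries, and stayed 1 with each library left out; the 1 call of DESeq2 was Arntl, not Nr1d2. In blastocysts (1) it was 0 with median ratio scaling, CPM outside the most abundant pair, quantile normalization and edgeR, and 0 to 2 with each library left out. With stage as a covariate (1) it was 0 in edgeR, DESeq2 and with the block, and 1 to 1 with each library left out. It was 0 at the 8-cell stage and in morulae in every setting run. Over the 4 steps control embryos had 9 calls, 14 in 1 fit over all libraries, 7 to 11 in the other settings without a block and 8 to 11 with each library left out. Light embryos had 9, 7 to 9 in the other settings without a block and 8 to 10 with each library left out. With the block light embryos had 0 calls in the 3 steps where it could be fitted, and the sum of 1 holds the call of Cry1 from the step without shared numbers. The step difference (1) had 2 calls with median ratio scaling and DESeq2, 3 in 1 fit over all libraries, 0 with the block and 1 to 3 with each library left out. The cause of these changes was not tested. Libraries with the same number are not known to share more than that number, and the block leaves few degrees of freedom. For light against control at the 8-cell and blastocyst stages alone, the block could not be fitted: No paired analysis was possible because the groups there share fewer than 2 numbers. Members with few reads, Per2 and Dbp after the 2-cell stage above all, limit what could be detected.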
